A study of Sus scrofa with 20 samples.

Results

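The insulin and insulin-like growth factor (IGF) genes described here are the ligands IGF1 and IGF2, the receptors INSR, IGF1R and IGF2R, the receptor substrates IRS1 and IRS2, and the IGF binding proteins IGFBP2, IGFBP3 and IGFBP5. They were taken as every probe set that the platform annotation gives to one of these symbols, that is 10 of 13755 named genes and 52 of 47722 probe sets that are not controls. Of the 52 probe sets, 33 lay in the brighter part of the array that was kept for testing, and they belong to 9 of the genes, since none of the 7 probe sets of IGF1 was kept.

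Messenger RNA was profiled in the hypothalamus of 10 high-reactive (HR) and 10 low-reactive (LR) German Landrace pigs, with 1 Affymetrix Porcine Snowball array per animal. No treatment is given in the labels, and all animals are labelled as adult and were slaughtered at a few months of age according to the study's methods. HR and LR describe how piglets responded in the backtest, in which a piglet is held on its back and its attempts to escape are recorded, and the animals were chosen at the extremes of this behaviour and by their haplotype at a region of chromosome 12, so that behaviour and haplotype cannot be told apart. The labels do not state the sex, the litter or the hybridisation batch, and replicate numbers are names given to the arrays here.

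Insulin and the IGFs act through the related receptor tyrosine kinases INSR and IGF1R, which phosphorylate the docking proteins IRS1 and IRS2 and thereby switch on the PI3K and AKT kinases and the MAP kinases. IGF2R has no kinase and removes IGF2 from the cell surface, and the IGF binding proteins hold the IGFs in the extracellular fluid and set how much ligand is free. In the hypothalamus this pathway takes part in the control of food intake, glucose balance and reproduction, and IGF2 is made mostly by the choroid plexus, the meninges and vessel walls of the adult brain. Values are log2 values after robust multichip averaging (RMA), differences are HR minus LR with the standard error (SE) of limma, and 95% intervals come from the same fit. A level belongs to its own probe set and is not compared with that of another probe set. In a tissue sample, fewer cells of a type and less RNA per cell cannot be told apart.

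The medians of the 20 arrays lay between 5.14 and 5.26, and array pairs correlated between 0.643 and 0.985 over the 23861 kept probe sets. Of 10 hypothalamic marker genes, 9 were kept, and of 6 pituitary markers, 2 were kept. LR replicate 3 stood apart, with the lowest mean of hypothalamic markers (7.82 against 8.59 or more in the other LR arrays) and the highest mean of thalamic markers (8.0 against 7.30 or less). Values without it are given for some results, and not for the relations to marker lists. The unspecific signal of an array was taken as the mean of its 69 background control probe sets (the background control mean), whose sequences belong to no pig transcript. It lay between 3.73 and 4.44 in HR and between 3.68 and 4.22 in LR animals. The groups did not differ in it beyond their spread (4.09 ± 0.26 and 4.01 ± 0.17, SD, n = 10 each, two-sided permutation test p = 0.398), but 4 HR arrays, replicates 3, 4, 5 and 10, lay above every LR array.

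No insulin or IGF probe set passed the adjusted threshold of 0.05 between HR and LR animals, as no probe set of the whole table did (0% of 23861 called, smallest adjusted p of limma 0.861). An unadjusted p under 0.05 was found for 6 of the 33 kept probe sets, all lower in HR, where 4.57% of all kept probe sets lay under it, 3.36% lower and 1.21% higher in HR. These 6 were the 3 kept probe sets of INSR, 2 of the 5 of IGF1R and the single kept one of IRS2, so they stand for 3 genes and are not independent measurements. With single arrays left out the count lay between 2 and 9, and the share of all kept probe sets under 0.05 moved as well. The count was 9 without HR replicate 8 (10.1% of all kept probe sets), 3 without LR replicate 3 (3.50%), and 2 without LR replicate 1 (3.39%) or LR replicate 6 (4.22%). Of all 33, 15 were lower and 18 higher in HR, where 11591 of all 23861 kept probe sets were lower. The median difference was 0.02 against 0.01 over all kept probe sets. The 95% interval lay within 1.5-fold for 28 of the 33, against 77.6% of all kept probe sets, and within 2-fold for all 33.

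Among the ligands, IGF2 (chromosome 2, 1469183 to 1496417, Sscrofa11.1) was the only one with kept probe sets, 13 of 14. Its brightest, SNOWBALL_022586_s_st, had a lowest, median and highest value of 10.88, 11.28 and 11.41 in HR animals, against 10.61, 11.17 and 11.28 in LR animals. The groups overlapped, although 5 of 10 HR arrays lay above the highest LR array and 2 LR arrays, replicates 3 and 8, below the lowest HR array. The difference was 0.18 ± 0.10 (95% interval -0.03 to 0.39, unadjusted p 0.095, adjusted p 0.861), and 0.13 without LR replicate 3.

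Of the 13 kept IGF2 probe sets, 12 were higher in HR, where 12270 of all 23861 kept probe sets were higher. The 13 stand for 1 gene on the same arrays and are not independent measurements. None of the 13 lay under an unadjusted p of 0.05 by limma, while 1 did by the rank-sum test, 1 with array weights and 2 without HR replicate 8. The differences of the 13 lay between -0.01 and 0.25. The largest was that of SNOWBALL_022235_st, 0.25 ± 0.13 (unadjusted p 0.072), with a lowest, median and highest value of 5.0, 5.53 and 6.0 in HR against 4.94, 5.31 and 5.48 in LR animals. For this probe set 6 of 10 HR arrays lay above the highest LR array. It did not pass the filter by background controls described below, which 2 of the 13 passed (differences 0.13 and 0.18). The 13 probe sets moved together to varying degrees. Over the 20 arrays r between pairs of them lay between 0.28 and 0.95 (median 0.71), and no pair had a negative r. Of the 13, 9 can bind several transcripts. After the background control mean was removed, r between pairs lay between -0.33 and 0.87 (median 0.27). The count of probe sets higher in HR was 13 with the arrays centred on their median, 9 with array weights, 10 without LR replicate 3 and 6 with the background control mean as a covariate. In the same order, the median difference over all kept probe sets was 0.026, -0.0028, -0.0046 and -0.020, against 0.0056 in the main fit.

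IGF1 (chromosome 5, 81762027 to 81909253), the ligand that mediates much of the action of growth hormone, was dim in all 7 of its probe sets. The brightest, SNOWBALL_007703_s_st, had a mean of 5.16, below the lowest kept mean of 5.21. Its values were 4.63, 5.21 and 6.01 (lowest, median, highest) in HR and 4.02, 5.15 and 5.86 in LR animals, which overlapped over most of their range. In the fit without a filter the 7 differences lay between -0.10 and 0.12, each smaller than its SE. Whether hypothalamic IGF1 mRNA differed was therefore not detectable at this signal.

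**Figure D1:**
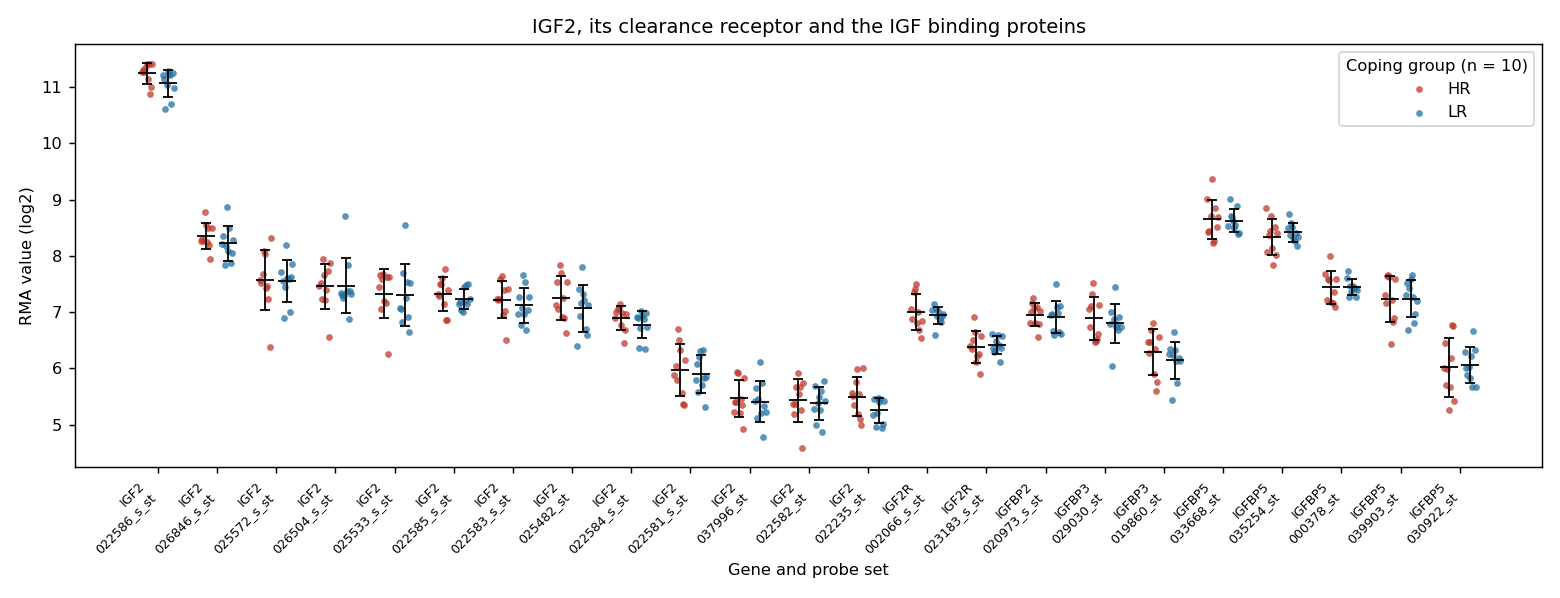
RMA values (log2, vertical axis) of every kept probe set of IGF2, IGF2R, IGFBP2, IGFBP3 and IGFBP5 (horizontal axis), with 1 point per array, HR in red at the left and LR in blue at the right of each pair, and bars for the mean and SD of 10 arrays. The groups overlap in every probe set, and for the brightest IGF2 probe set the HR mean is 11.24 and the LR mean 11.06.

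INSR, the insulin receptor (chromosome 2, 71797209 to 71939923), was lower in HR in all 4 of its probe sets, and the 3 kept ones lay just under an unadjusted p of 0.05. In the brightest, SNOWBALL_028330_st, the HR arrays ran from 7.05 over a median of 8.28 to 8.71, and the LR arrays from 8.17 over 8.45 to 8.73. The top of both groups was alike and the difference came from the lower end, where 5 HR arrays (replicates 3, 4, 5, 7 and 10, between 7.05 and 8.14) lay below every LR array. The means were 8.09 ± 0.55 in HR and 8.47 ± 0.20 in LR (SD, n = 10 each), a difference of -0.38 ± 0.18 (95% interval -0.74 to -0.01, unadjusted p 0.046, adjusted p 0.861).

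The other kept INSR probe sets showed the same arrays. SNOWBALL_033124_st had 6.01, 7.56 and 8.07 in HR and 7.34, 7.82 and 8.21 in LR animals (lowest, median, highest), a difference of -0.46 ± 0.22 (unadjusted p 0.049). SNOWBALL_028242_st had 6.53, 7.40 and 7.86 in HR and 7.35, 7.66 and 7.88 in LR animals, a difference of -0.32 ± 0.15 (unadjusted p 0.049). In each, 5 HR arrays lay below the lowest LR array. The 3 probe sets correlated with each other between 0.93 and 0.97 over the arrays, and between 0.79 and 0.91 after the background control mean was removed. The fourth, SNOWBALL_031502_st, was below the filter (mean 3.50) and differed by -0.11 ± 0.14.

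Without single arrays the difference of SNOWBALL_028330_st lay between -0.45 and -0.26 with an unadjusted p between 0.018 and 0.096, the last without HR replicate 5. The 3 probe sets were lower in HR under every setting in which they were tested, but none lay under 0.05 without any one of HR replicates 3, 4, 5, 7 or 10 or of LR replicates 1, 3, 4, 6, 8, 9 or 10. None of the 3 lay under 0.05 by the rank-sum test or after a second quantile normalisation either. With centred arrays 1 did (4.16% of all kept probe sets), and with array weights 1 did (8.37%). A filter by background controls asked for values above the 95% quantile of the background control probe sets in at least 80% of arrays. No INSR probe set passed this filter, which 4304 of 47722 probe sets passed, so INSR was not tested under it. No probe set of IGF2R, IRS1, IGFBP2 or IGFBP3 passed it either.

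IGF1R (chromosome 1, 137383623 to 137691038), the receptor for IGF1 and IGF2, was lower in HR in all 5 kept probe sets, but by amounts between -0.51 and -0.06. The brightest, SNOWBALL_003019_st, had 8.15, 8.33 and 8.50 in HR and 7.83, 8.38 and 8.57 in LR animals (lowest, median, highest), a difference of -0.06 ± 0.09 (95% interval -0.25 to 0.12). The groups overlapped throughout, and the lowest value of both was that of LR replicate 6. SNOWBALL_003116_s_st differed by -0.09 ± 0.07 and SNOWBALL_046349_st by -0.15 ± 0.10, neither under an unadjusted p of 0.05.

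The dimmer IGF1R probe sets differed more. SNOWBALL_029041_st had 6.48, 6.93 and 7.59 in HR and 7.08, 7.24 and 7.71 in LR animals, with 6 HR arrays below the lowest LR array and a difference of -0.34 ± 0.14 (unadjusted p 0.021, adjusted p 0.861). SNOWBALL_045363_st had 5.07, 5.83 and 6.26 in HR and 5.93, 6.21 and 6.56 in LR animals, with 6 HR arrays below the lowest LR array and 4 LR arrays above the highest HR array. Its means were 5.71 ± 0.47 and 6.22 ± 0.18 (SD, n = 10 each), a difference of -0.51 ± 0.15 (95% interval -0.83 to -0.19, unadjusted p 0.003, adjusted p 0.861). The LR mean was exceeded in 1 HR array of 10. Leaving out single arrays kept this difference between -0.57 and -0.44. SNOWBALL_029041_st and SNOWBALL_045363_st did not pass the filter by background controls, which SNOWBALL_003019_st alone of the IGF1R probe sets passed.

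Whether probe sets of one gene differed in their HR minus LR difference was tested within arrays, each kept probe set against the brightest of its gene, in 24 pairs by two-sided permutation tests. The difference of SNOWBALL_045363_st was 0.45 below that of SNOWBALL_003019_st (-0.45, p = 0.0079, adjusted p 0.191 over the 24 pairs), and that of SNOWBALL_029041_st was 0.28 below it (-0.28, p = 0.0443, adjusted p 0.532). No pair of any gene passed the adjusted threshold. The 5 IGF1R probe sets correlated with each other between 0.35 and 0.89, and between 0.13 and 0.76 after the background control mean was removed, less closely than those of INSR. The mean over all kept probe sets of IGF1R differed by -0.23 ± 0.10 and that of INSR by -0.39 ± 0.18 (adjusted p 0.881 for both over 10317 genes).

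IGF2R (chromosome 1, 7369485 to 7472480), the clearance receptor, showed no difference beyond the spread. SNOWBALL_002066_s_st had 6.54, 6.94 and 7.49 in HR and 6.60, 6.96 and 7.15 in LR animals (lowest, median, highest), a difference of 0.07 ± 0.12 (95% interval -0.17 to 0.31). The HR arrays spread wider on both sides, with 3 above the highest and 1 below the lowest LR array. SNOWBALL_023183_s_st differed by -0.03 ± 0.11, and both probe sets can bind several transcripts.

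**Figure D2:**
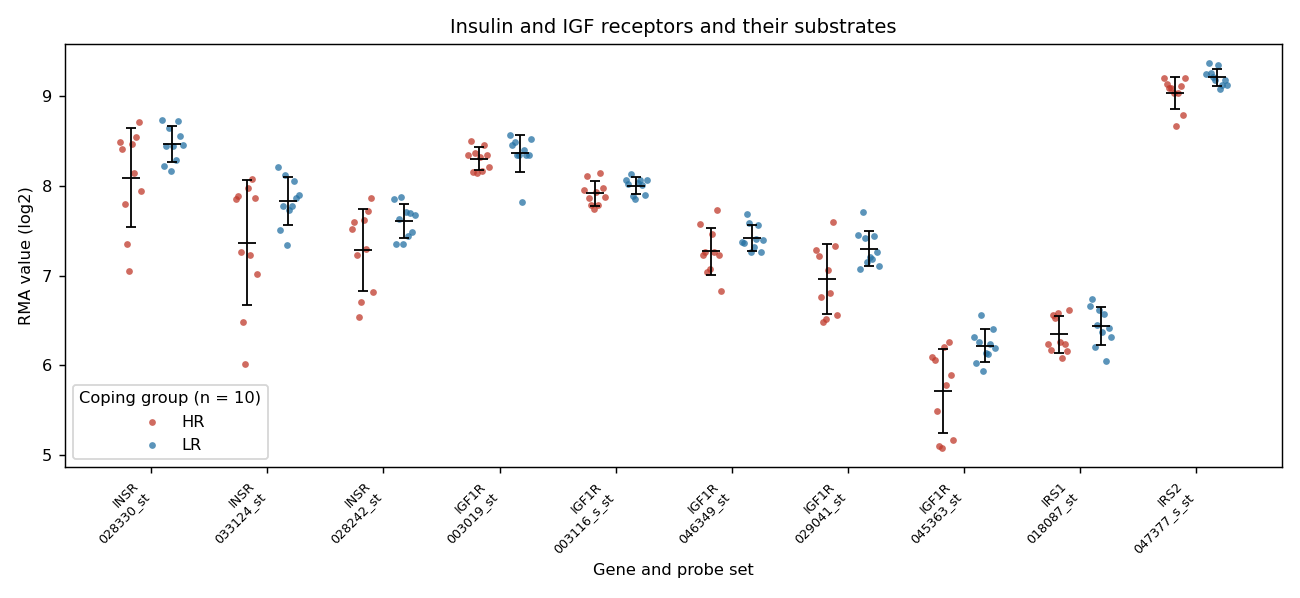
RMA values (log2, vertical axis) of every kept probe set of INSR, IGF1R, IRS1 and IRS2 (horizontal axis), with 1 point per array, HR in red at the left and LR in blue at the right of each pair, and bars for the mean and SD of 10 arrays. In the 3 INSR probe sets the HR points reach below the LR points, down to 7.05 in the leftmost, while the upper ends are alike.

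Of the receptor substrates, IRS2 (chromosome 11, 76626158 to 76654639) had 1 kept probe set of 3, SNOWBALL_047377_s_st, with 8.66, 9.09 and 9.20 in HR and 9.08, 9.20 and 9.37 in LR animals (lowest, median, highest). None of the 10 HR arrays reached the LR mean, 4 lay below the lowest LR array, and 5 LR arrays lay above the highest HR array. The means were 9.04 ± 0.17 and 9.21 ± 0.10 (SD, n = 10 each), a difference of -0.18 ± 0.08 (95% interval -0.34 to -0.01, unadjusted p 0.038, adjusted p 0.861). The lowest HR arrays, replicates 6 and 9, were not among those low in INSR, while the next lowest, replicates 5 and 7, were. The probe set can bind several transcripts. Without HR replicate 6 the difference was -0.13, with the highest unadjusted p, 0.085, of any array left out. The probe set also did not lie under 0.05 without HR replicate 9 or without any one of LR replicates 1, 2 and 6. It did not lie under 0.05 with centred arrays (-0.15), after a second quantile normalisation (-0.15) or with array weights (-0.10). The other probe sets of IRS2, SNOWBALL_021939_st and SNOWBALL_033438_st, were below the filter and differed by -0.25 ± 0.17 and -0.05 ± 0.12.

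IRS1 (chromosome 15, 128245846 to 128307321) had 1 kept probe set of 4, SNOWBALL_018087_st, with 6.08, 6.25 and 6.61 in HR and 6.04, 6.43 and 6.74 in LR animals. The groups overlapped over nearly their whole range, and the difference was -0.09 ± 0.10 (95% interval -0.30 to 0.12). Among its dim probe sets, SNOWBALL_037937_st differed by -0.24 ± 0.11 in the fit without a filter (unadjusted p 0.039, adjusted p 0.916), where 4.57% of all 47722 probe sets lay under 0.05, and the other 2 by -0.02 ± 0.12 and -0.03 ± 0.25.

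None of the binding proteins differed beyond the spread between animals. IGFBP2 (chromosome 15, 118822092 to 118850985), an abundant binding protein of the brain, had 6.56, 7.01 and 7.25 in HR and 6.60, 6.96 and 7.50 in LR animals in its kept probe set SNOWBALL_020973_s_st (lowest, median, highest). The difference was 0.04 ± 0.12 (95% interval -0.20 to 0.29), and the ranges nearly coincided.

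IGFBP3 (chromosome 18, 50002921 to 50009425), the main IGF carrier in blood, had both probe sets kept. SNOWBALL_029030_st had 6.47, 6.89 and 7.52 in HR and 6.05, 6.79 and 7.44 in LR animals, a difference of 0.09 ± 0.16 (95% interval -0.23 to 0.42). With single arrays left out this value lay between 0.01 (without LR replicate 3, the lowest array) and 0.16 (without LR replicate 5), and it was 0.02 without HR replicate 5 and 0.04 without HR replicate 4. SNOWBALL_019860_st differed by 0.15 ± 0.16, and by 0.07 without LR replicate 3.

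IGFBP5 (chromosome 15, 118861816 to 118877787), which binds to extracellular matrix and lies next to IGFBP2, had 5 of 8 probe sets kept, with differences between -0.08 and 0.02. The brightest, SNOWBALL_033668_st, had 8.23, 8.60 and 9.36 in HR and 8.39, 8.58 and 9.01 in LR animals, a difference of 0.02 ± 0.13 (95% interval -0.25 to 0.29), with HR arrays both above and below all LR arrays. Its probe sets disagreed among themselves: SNOWBALL_030922_st correlated with the brightest at -0.16, and 4 of the 10 pairs had a negative r, down to -0.50. After the background control mean was removed, r between pairs lay between -0.16 and 0.86. Below the filter, SNOWBALL_037535_s_st differed by -0.18 ± 0.09 (unadjusted p 0.056, adjusted p 0.916).

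**Figure D3:**
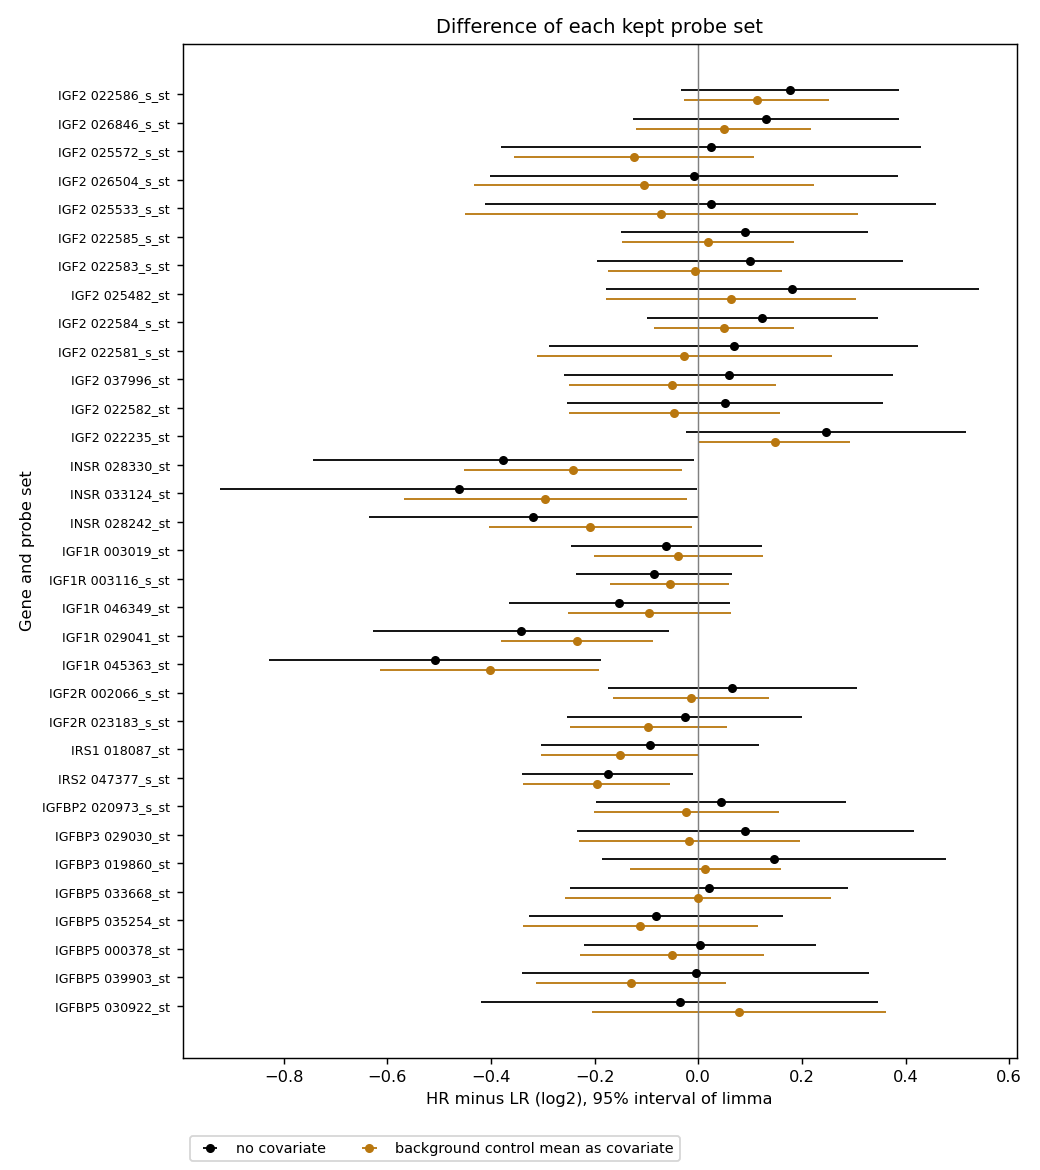
HR minus LR difference (log2, horizontal axis) with its 95% interval for each of the 33 kept probe sets (vertical axis), without a covariate in black and with the background control mean as a covariate in orange. The intervals of the 3 INSR probe sets end just below 0 in both fits, while those of the IGF2 probe sets centre between -0.01 and 0.25 in black.

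The signals of most of these genes moved with the unspecific signal of the array. Of the 33 kept probe sets, 28 (84.8%) had r over 0.5 in size with the background control mean, against 80.7% of all kept probe sets. For the brightest probe set of each gene the relation was tested over the 20 arrays together with that to 11 marker lists (108 relations, two-sided permutation tests with Benjamini-Hochberg adjustment). INSR went down with the background (r = -0.83, Spearman's rho -0.86, adjusted p 0.000216 and 0.00108, the smallest that these permutations gave, and r = -0.79 when the 2 arrays most distant from the median background were left out), within HR (r = -0.91) and within LR animals (r = -0.68). The 5 HR arrays lowest in INSR were the 5 HR arrays of highest background.

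In the other direction, IGF2 (r = 0.80, rho 0.76), IGF2R (0.83, 0.72), IGFBP3 (0.78, 0.76), IGFBP2 (0.70, 0.70) and IRS1 (0.65, 0.62) went up with the background, with adjusted p between 0.000216 and 0.0118 for r and between 0.00259 and 0.0255 for rho. Their r stayed between 0.56 and 0.81 without the 2 farthest arrays, and between 0.73 and 0.88 within HR and 0.59 and 0.80 within LR animals. The brightest probe sets of IGF1R (r = -0.38, rho -0.39, adjusted p 0.285 and 0.259), IRS2 (0.21, -0.00, adjusted p 0.577 and 0.997) and IGFBP5 (0.20, 0.12, adjusted p 0.597 and 0.850) did not pass the test. The dimmer IGF1R probe sets SNOWBALL_029041_st and SNOWBALL_045363_st had r = -0.86 and -0.73.

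With the background control mean as a covariate, 8 of the 33 probe sets lay under an unadjusted p of 0.05, where 7.89% of all kept probe sets did, and none passed the adjusted threshold. The differences of INSR were then -0.24 ± 0.10, -0.30 ± 0.13 and -0.21 ± 0.09, those of SNOWBALL_029041_st and SNOWBALL_045363_st of IGF1R -0.23 ± 0.07 and -0.40 ± 0.10, that of IRS2 -0.20 ± 0.07 and that of IRS1 -0.15 ± 0.07. IGF2 was 0.11 ± 0.07 in its brightest probe set and 0.15 ± 0.07 in SNOWBALL_022235_st. The brightest probe sets of IGF2R, IGFBP2, IGFBP3 and IGFBP5 then lay between -0.02 and -0.00. Of the 33, 25 were lower in HR in this fit, where 13623 of all 23861 kept probe sets were lower. The median was -0.05 against -0.02 over all kept probe sets.

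The 7 arrays whose background lay more than 1 SD from the mean were HR replicates 4, 5, 8, 9 and 10 and LR replicates 3 and 8. In the 5 HR and 8 LR arrays that remained, a comparison chosen after seeing the data, INSR SNOWBALL_028330_st differed by -0.17 ± 0.13 (95% interval -0.46 to 0.11), IRS2 by -0.19 ± 0.10, IGF1R SNOWBALL_045363_st by -0.29 ± 0.13 and IRS1 by -0.25 ± 0.10. In these arrays 2 of the 33 probe sets, those of IGF1R and IRS1 just named, lay under an unadjusted p of 0.05, where 2.19% of all kept probe sets did, and 8 of the 13 IGF2 probe sets were lower in HR.

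**Figure D4:**
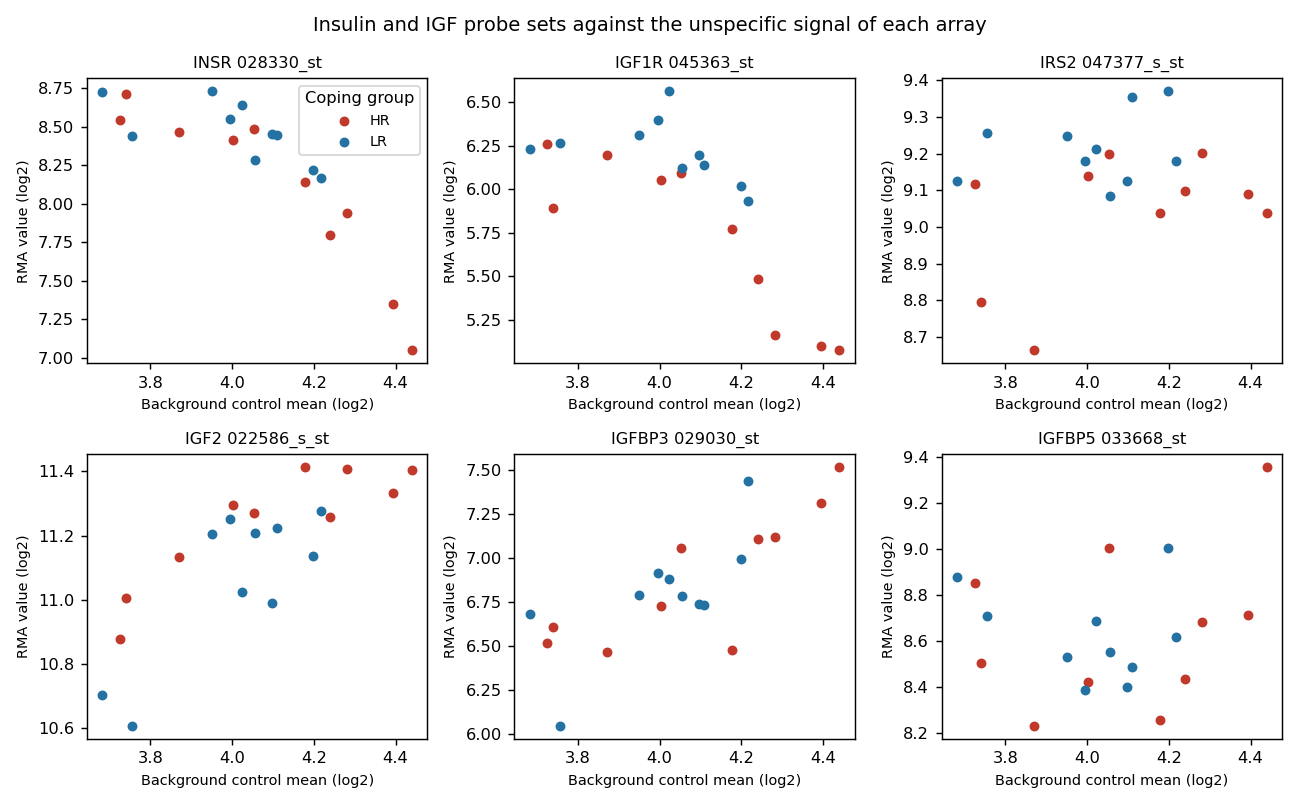
RMA value (log2, vertical axes) of 6 probe sets against the background control mean of the array (log2, horizontal axes), with 1 point per array, HR in red and LR in blue. INSR goes down with the background (r = -0.83) and IGF2 up (r = 0.80), while the HR points of IRS2 (r = 0.21) lie mostly below the LR points.

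Marker genes of cell types moved with some of these genes too. The mean of 6 astrocyte markers had r = 0.81 with INSR (rho 0.83, adjusted p 0.000216 and 0.00108) and -0.73 with IGF2 (rho -0.76, adjusted p 0.00141 and 0.00259). It followed the background control mean itself with r = -0.97. After the background was removed from both sides, r was 0.05 for INSR and 0.25 for IGF2. Astrocyte markers lay between 9.90 and 11.03 in HR and between 10.07 and 11.06 in LR animals and showed no difference past the threshold (adjusted p 0.755 over 11 lists).

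For IGFBP3 the strongest relation was to 8 neuron markers (r = -0.86, rho -0.75, adjusted p 0.000216 and 0.00259), which remained at -0.60 after the background was removed (p = 0.00484, adjusted p 0.439). For IGF2R it was to 4 mural cell markers (r = -0.85, rho -0.68, adjusted p 0.000309 and 0.0101), at -0.49 after removal. IRS1 (r = -0.69) and IGFBP2 (r = -0.74) had theirs with astrocyte markers, at -0.32 and -0.34 after removal. No marker list had a relation past the adjusted threshold with IGF1R, IRS2 or IGFBP5. None of the 11 lists differed between HR and LR animals past the adjusted threshold (adjusted p between 0.533 and 0.910). For the 3 choroid plexus markers kept of 6, the level was 6.91 ± 0.34 in HR and 6.69 ± 0.26 in LR animals, and for 6 of 7 meningeal markers it was 7.08 ± 0.20 and 7.13 ± 0.28. The part of the background and of these cell types in the differences of the insulin and IGF genes was not tested beyond these values.

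By the highest r over the 20 arrays among 10317 genes, the genes most like INSR were NTRK2, the receptor of the neurotrophin BDNF, and GPM6A, a neuronal membrane glycoprotein (both 0.96). PLCD1 (0.94) and INO80E (0.92) were most like IGF2, RXRG and TRIM41 (0.94 and 0.93) most like IGFBP3, LOC100513604 and TOR2A (0.94 and 0.92) most like IGF2R, CEACAM18 and SLC30A3 (0.86 and 0.85) most like IGFBP2, and BAALC and HTRA1 (0.85 for both) most like IRS1. The closest genes to IRS2 (TCERG1L 0.79, SLC37A3 0.76), IGF1R (ZCCHC4 0.73, DAB2 0.72) and IGFBP5 (SKAP1 0.70, WIPF3 0.69) were less alike. These r values describe arrays that share the background signal.

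Around these genes, a wider list of 82 insulin and IGF pathway genes was examined, of which 68 were on the array and 62 were kept, each by its brightest probe set. None of them passed after adjustment. An unadjusted p under 0.05 was found for 3 of 62, all lower in HR, where 4.19% of 10317 genes lay under it and 3.38% were lower and under it. The count was 0 without any one of HR replicates 3, 4, 5 and 10 or LR replicates 4 and 10, where between 1.83% and 3.07% of all genes lay under 0.05, and 9 without HR replicate 8, where 9.24% did. In all, 33 were lower and 29 higher in HR, with a median of -0.01 against 0.00 over all genes.

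The 3 genes act downstream of AKT or on it. FOXO1, a transcription factor that AKT keeps out of the nucleus, had 8.54 ± 0.21 in HR and 8.75 ± 0.19 in LR animals (SD, n = 10 each), a difference of -0.21 ± 0.10 (unadjusted p 0.045). TBC1D4, an AKT substrate in the traffic of the glucose transporter SLC2A4, had 5.87 ± 0.30 and 6.11 ± 0.17, a difference of -0.24 ± 0.11 (unadjusted p 0.042). PHLPP2, a phosphatase that removes an activating phosphate from AKT, had 7.12 ± 0.26 and 7.34 ± 0.14, a difference of -0.21 ± 0.10 (unadjusted p 0.046). All 3 had an adjusted p of 0.861, and r with the background was -0.40 for FOXO1, -0.68 for TBC1D4 and -0.39 for PHLPP2. No probe set of TBC1D4 or PHLPP2 passed the filter by background controls, while 1 of FOXO1 did.

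The next genes in order of p did not lie under 0.05. On the lower side these were FOXO3 (-0.20 ± 0.10), the AKT phosphatase PHLPP1 (-0.26 ± 0.13) and PTPN1, which dephosphorylates the insulin receptor (-0.13 ± 0.08). On the higher side they were IGFALS, which holds IGFs and binding proteins in a larger complex (0.21 ± 0.10), SOCS3, an inhibitor of cytokine and insulin signalling (0.20 ± 0.10), SLC2A4 itself (0.24 ± 0.12), STC2, an inhibitor of the proteases that cut IGF binding proteins (0.18 ± 0.10), the adaptor DOK1 (0.30 ± 0.19) and INS, the insulin gene (0.18 ± 0.13). The probe sets of INS, SLC2A4, FOXO3 and PTPN1 can bind several transcripts, and r with the background was positive for all 6 genes on the higher side (INS 0.84, SOCS3 0.70, IGFALS 0.70, DOK1 0.62, SLC2A4 0.56 and STC2 0.42). It was negative for the 3 on the lower side (FOXO3 -0.76, PHLPP1 -0.69 and PTPN1 -0.30). The filter by background controls was passed by no probe set of the 6 genes on the higher side or of PTPN1. Of FOXO3 and PHLPP1, 1 probe set each passed it.

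By role, 6 of 9 kept ligands and binding proteins of the wider list were higher in HR (median 0.15) and 6 of 8 genes of the RAS and MAP kinase branch were lower (median -0.13), with none of either under an unadjusted p of 0.05. Receptors and adaptors (6 lower, 5 higher), the PI3K and AKT genes (7 lower, 5 higher) and AKT targets and mTOR genes (10 lower, 7 higher) had medians of -0.01, -0.06 and -0.03, and of the 5 genes of glucose transport and RNA binding 1 was lower and 4 were higher (median 0.06). Over all genes 5154 of 10317 were lower in HR. The median r with the background was 0.70 for the ligands and binding proteins and -0.84 for the RAS and MAP kinase genes, against 0.50 over all genes.

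**Figure D5:**
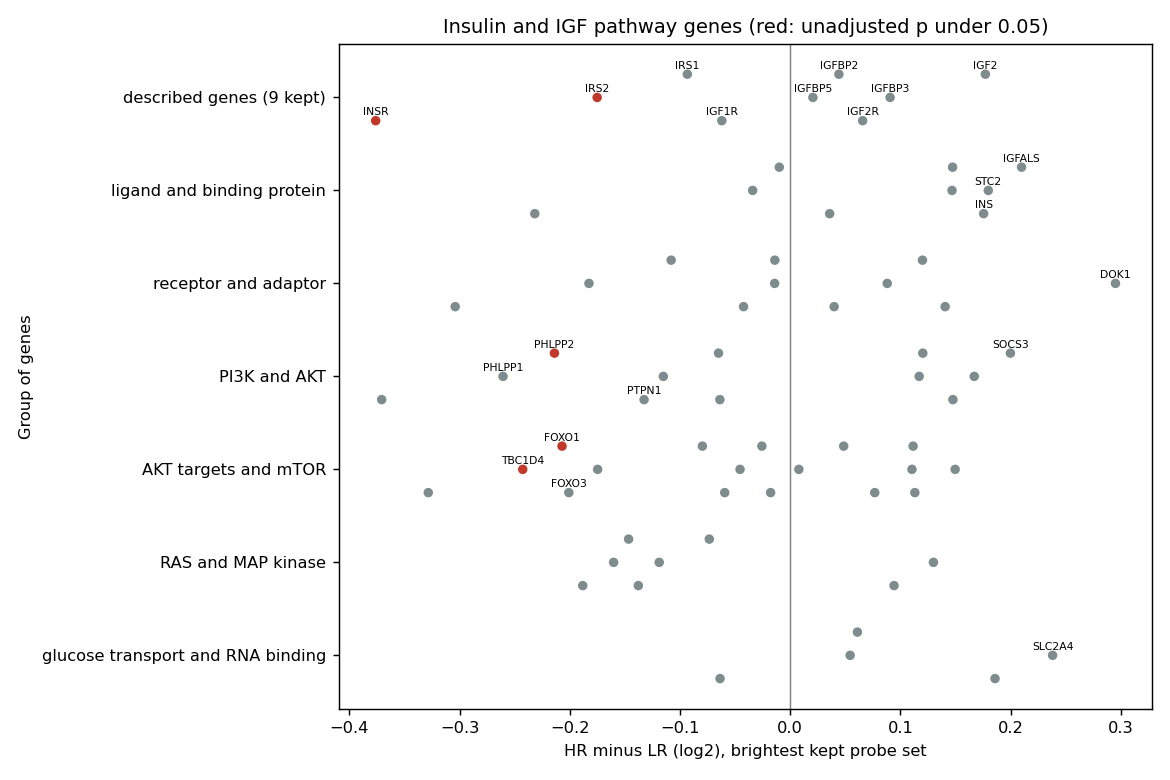
HR minus LR difference (log2, horizontal axis) of the brightest kept probe set of each gene, for the 9 described genes with a kept probe set and for 62 other pathway genes by role (vertical axis), with 1 point per gene, in red where the unadjusted p is under 0.05. The red points, INSR, IRS2, PHLPP2, FOXO1 and TBC1D4, all lie below 0, and IGF1R is shown by its brightest probe set at -0.06.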

How the data were processed

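RNA of the hypothalamus was amplified into sense strand cDNA, which was fragmented, labelled with biotin and hybridised to 20 Affymetrix Porcine Snowball arrays. The authors processed the scans with GCOS 1.1.1 and normalised them by RMA, and the values in the deposited table are log2 values. RMA equalises the distribution of values between arrays, so a shift of most transcripts cannot be seen, and unspecific signal compresses the differences of dim probe sets. The study's filter on detection was not applied to the deposited table of 47845 probe sets.

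After 123 control probe sets were set aside, the brighter 50% by mean value were kept (23861, mean of at least 5.21). The platform annotation gave 1 symbol to 26426 of the 47722 others, several to 0 and none to 21296. Positions are those of RefSeq on Sscrofa11.1. Names ending in _s_st mark probe sets that can bind several transcripts.

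HR minus LR was fitted on the kept probe sets with limma 3.58.1 in R 4.3.3 (lmFit, eBayes) with Benjamini-Hochberg adjustment over all of them and a threshold of 0.05; probe sets below the filter have values of the fit on all 47722. Permutation tests of single values and relations were two-sided and used 100000 permutations. The number of arrays limits the precision (median half-width of the 95% interval 0.29). The script was tested on simulated data. Nothing says which arrays share a litter or hybridisation. The p-values take the arrays as independent of each other, which could not be checked.

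Alternatives covered the filter, a second quantile normalisation, centring, array weights, a rank-sum test, a trend in the variance prior, averaging the probe sets of a gene, the background covariate and leaving out each array. The genes, lists and tests were chosen with earlier results of these data known. Named are all 10 genes with every probe set, or its range, pathway genes at an unadjusted p under 0.05 and the 6 of smallest p in each direction, and the 2 genes most like each described gene.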

Additional observations from a re-analysis of the deposited data

Results flagged for a closer look

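Among 152 sets of 10 arrays (each probe set or marker list in each group), 13 held an array that lay far from the other 9 of its group by Dixon's criterion, where chance gives about 1 in 20. Of these 13, 5 came from LR replicate 3 and 3 from HR replicate 9.

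Among kept probe sets, IGF1R SNOWBALL_003019_st had 7.83 in LR replicate 6, against 8.34 or more in the other LR arrays, and without it the difference of this probe set was -0.12. IGF2 SNOWBALL_026504_s_st had 6.56 in HR replicate 9 (7.22 or more in the others) and 8.70 in LR replicate 5 (7.84 or less in the others). IGF2 SNOWBALL_025533_s_st had 6.26 in HR replicate 9, against 7.06 or more.

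Among dim probe sets, IGF1 SNOWBALL_038388_st had 5.08 in HR replicate 5 and IGF1 SNOWBALL_047807_st had 3.34 in LR replicate 3. IRS1 SNOWBALL_044267_st had 5.69 in HR replicate 9, IRS1 SNOWBALL_037937_st had 4.86 in LR replicate 1 and IGFBP5 SNOWBALL_037534_st had 4.56 in HR replicate 5.

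LR replicate 3 had the highest mean of mural cell markers (7.63) and of thalamic markers (8.0) and the lowest of hypothalamic markers (7.82) and of tanycyte and ependyma markers (6.98) in its group. Without it 3 of the 33 insulin and IGF probe sets lay under an unadjusted p of 0.05, 2 of IGF1R and that of IRS2, where 3.50% of all kept probe sets did.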

How the results depend on the processing

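No paired analysis was possible because the replicate numbers only name the arrays. No insulin, IGF or other probe set passed the adjusted threshold under any alternative, with a smallest adjusted p of 0.051 with array weights. The count of insulin and IGF probe sets at an unadjusted p under 0.05, 6 in the report, was 1 of 6 with the filter by background controls (6.04% of all probe sets tested), 2 after a second quantile normalisation (3.72%), 3 with centred arrays (4.16%), 3 by the rank-sum test (3.66%), 2 without the 7 arrays of extreme background (2.19%), and between 2 (without LR replicate 1 or 6) and 9 (without HR replicate 8) with single arrays left out. It was 3 without any one of HR replicates 3, 4, 5, 7 and 10 or LR replicates 3, 4, 8, 9 and 10 (between 2.17% and 4.62%). The count of other pathway genes, 3 in the report (4.19% of all genes), was 1 with centred arrays (3.63%) and 5 with array weights (7.15%). It was 0 without any one of HR replicates 3, 4, 5 and 10 or LR replicates 4 and 10 (between 1.83% and 3.07%). Without HR replicate 8 it was 9 (9.24%). Over all probe sets, 1091 in the report, it was 2180 without a filter, 260 with the filter by background controls, 1997 with array weights, 1882 with the background covariate, 522 without the arrays of extreme background, and from 517 (HR replicate 5 left out) up to 2411 (HR replicate 8 left out). Of these, 73.5% were lower in HR in the report, 63.5% with centred arrays, 51.7% without a filter, 49.5% with array weights, 58.4% without the arrays of extreme background and 96.5% with the filter by background controls. The sign turned with the background covariate for IGF2R (-0.014), IGFBP2 (-0.024), IGFBP3 (-0.017) and IGFBP5 (-0.00094), and without the arrays of extreme background for IGFBP2 (-0.00030), IGFBP3 (-0.14) and IGFBP5 (-0.11). IGFBP5 was -0.020 over the mean of its probe sets and between -0.058 and 0.067 with single arrays left out, and its r with the background between -0.078 and 0.31. The r of IGF2 with astrocyte markers was 0.25 after the background was removed. INSR, IGF1R and IRS2 were lower in HR in each kept probe set under every setting in which it was tested. With the filter by background controls INSR was not tested, and of IGF1R only SNOWBALL_003019_st was. The causes of these changes were not tested.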
